A study of Rattus norvegicus with 2 samples.

Results

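The smooth muscle contractile genes followed here in cells of rat dorsal root ganglia (DRGs) are 10 of 32623 gene identifiers counted. They are Acta2, Actg2, Myh11, Tagln, Cnn1, Lmod1, Tpm2, Des, Mustn1 and Mylk, chosen by name and read in the mural cells of small vessels. In vascular smooth muscle, calcium bound to calmodulin activates myosin light chain kinase, which phosphorylates the regulatory light chain so that smooth muscle myosin can pull on actin filaments. Calponin, transgelin, tropomyosin and leiomodin sit on or build the actin filament, and desmin ties the contractile units to the cell's scaffold. Pericytes lie on capillaries and carry less of this apparatus, and in ganglia both cell types take part in regulating the blood supply of the neurons.

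The single cells came from bilateral L3-L6 DRGs of male Sprague Dawley rats, which were 8 weeks old when bought. DPN rats (diabetic peripheral neuropathy) had received 1 intraperitoneal injection of 65 mg/kg streptozotocin (STZ), a toxin of the insulin-producing beta cells, and Control rats citrate buffer. Ganglia were taken 8 weeks after the injection, and 5 rats were pooled into 1 library for each condition, with dead cells removed before loading. Rats cannot be told apart within a pool, so that there is no replicate, no test between the conditions was possible, and the effects of STZ, of diabetes and of the preparation cannot be told apart.

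The 10x Genomics 3′ assay labels each captured messenger RNA with a unique molecular identifier (UMI), and the values are UMI counts per gene and barcode. The Control library held 11011 barcodes with 121101966 UMIs and the DPN library 13168 barcodes with 115409375 UMIs. At least 1000 UMIs with under 20% of them from mitochondrial (Mt-) genes left 9798 and 11013 barcodes, with median depths of 9928 and 6446 UMIs. The libraries shared 38 barcodes.

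Mural cells were gated by marker genes, per 10000 UMIs of a cell unless stated. All had Cldn5, Flt1 and Cdh5, which mark endothelium, below 10 in sum. Smooth muscle cells had Tagln and Acta2 at 20 or more in sum and no UMI of Kcnj8 or Abcc9, the subunits of the potassium channel of pericytes. Pericytes had at least 2 UMIs of Kcnj8 and Abcc9. Fibroblasts, with Lum at 5 or more, served as a reference. The gates held 275 Control and 370 DPN smooth muscle cells with median depths of 5322 and 4310 UMIs. They held 250 and 438 pericytes, and 211 and 324 fibroblasts. Near the limit of the smooth muscle gate, 11 Control and 20 DPN cells inside had Tagln and Acta2 between 20 and 30, while 5 and 9 cells lay just outside, between 15 and 20. Because Tagln and Acta2 set this gate, their presence in it is no finding.

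The gate was checked on the other 8 genes, which did not set it. Levels are counts per 1000000 UMIs of the gate (CPM). The assay reads only the 3′ end of a transcript, so levels are compared between libraries and not between genes. The 8 genes summed to 11694 CPM in Control and 12663 in DPN smooth muscle cells. In pericytes the sums were 1144 and 962 CPM. Endothelial cells had 282 and 241, fibroblasts 196 and 331, Schwann cells 94.8 and 115, and satellite glia 61.3 and 70.0. Macrophages had 27.1 and 102, and neurons 21.4 and 22.9. Smooth muscle cells thus held the highest sum of these 8 genes in both libraries. Myh11, the smooth muscle myosin heavy chain, was seen in 97.8% of Control and 96.8% of DPN smooth muscle cells, against 2.08% and 2.46% of satellite glia, which were deeper (medians of 14134 and 11522 UMIs). The part of free RNA and of doublets in these low levels was not tested. Markers of skeletal muscle summed to 12.7 and 6.75 CPM, and 6 of them, Ckm, Mylpf, Tnnt3, Myh2, Mb and Actc1, had no UMI in smooth muscle cells of either library.

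**Figure D1:**
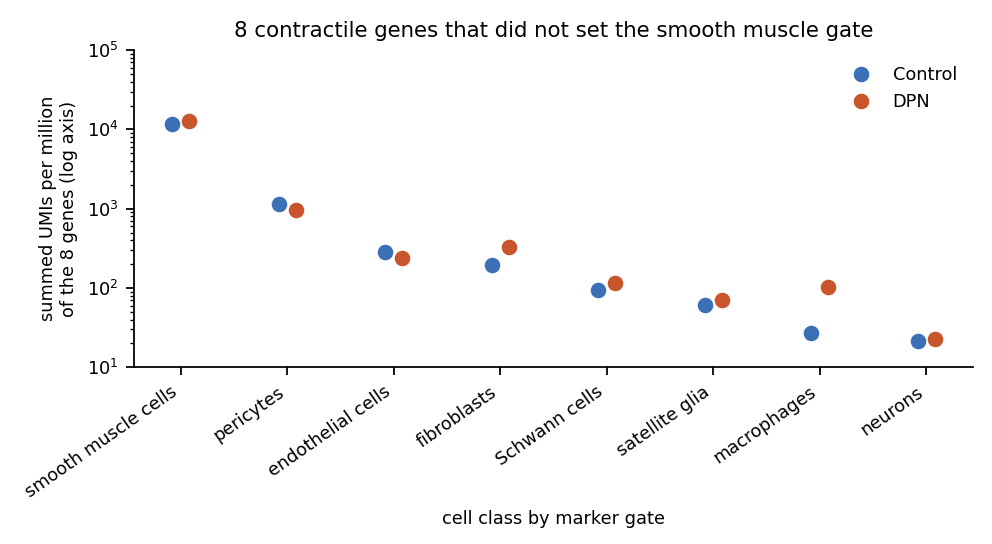
Summed CPM (log axis) of the 8 contractile genes other than Tagln and Acta2 in 8 cell classes, with 1 point per library. Smooth muscle cells stand at 11694 in Control and 12663 in DPN, pericytes at 1144 and 962, and the other 6 classes below 400.

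Acta2, the smooth muscle alpha-actin, carries the sequence element through which serum response factor and myocardin are known to drive this gene group, the CArG box. Its promoter is shown because the boxes can be read in it. Promoters of 7 of the 10 genes were matched in the RefSeq table of build GRCr8. Those of Myh11, Tagln and Lmod1 were not analysed here. The stretch below runs from 150 to 31 bases before the annotated start (GRCr8 chr1:241172534-241172653, minus strand), with capitals for CArG boxes that hold at most 1 G or C in their A/T core.
Acta2: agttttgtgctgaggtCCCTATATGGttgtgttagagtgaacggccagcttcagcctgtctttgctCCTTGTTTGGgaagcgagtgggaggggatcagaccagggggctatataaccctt
The boxes begin 134 and 84 bases before the start, and the motif is its own reverse complement, so that 1 search covers both strands. Of 33469 promoters, 8.08% held such a box in the 250 bases before the start and 1.5% held one with a pure A/T core. Actg2, Tpm2, Cnn1, Des, Mylk and Mustn1 had none in that window.

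In smooth muscle cells, the 10 genes did not move as a block. Myh11, Mylk and Lmod1 were 1.44 to 1.48 times as high in DPN as in Control, Tpm2, Des and Cnn1 were within 8% of Control, and Tagln, Mustn1, Acta2 and Actg2 were lower. A gene is said below to rise where DPN was at least 1.5 times Control, and to fall where it was 0.667 times Control or less. The 95% counting interval also had to leave out 1, and the gene needed 50 UMIs over both libraries. By this rule 1 of the 10 genes, Actg2, fell and none rose, where 4.67% of the 5782 genes with enough UMIs fell and 16.2% rose. The median log2 ratio was -0.080 over the 10 genes, and -0.033 over the 8 that did not set the gate, against 0.056 over all genes. All intervals cover counting error only, not the difference between pools of rats.

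The myosin motor and its activator were among the higher genes. Myh11 (ENSRNOG00000057880) had 3681 UMIs in Control and 5852 in DPN, or 2226 and 3291 CPM. The ratio was 1.48 (95% interval 1.42 to 1.54), just under the limit for a rise. Mylk (ENSRNOG00000002215), the myosin light chain kinase, stood at 636 CPM in Control and 918 in DPN, a ratio of 1.44 (1.34 to 1.56). Both were higher in DPN in each of the 3 ranges of cell depth that were compared, below 3000, from 3000 to 6000 and above 6000 UMIs. The ratio of Myh11 was 1.11 (0.909 to 1.36), 1.37 and 1.58 in these ranges, and that of Mylk 1.02 (0.722 to 1.45), 1.38 and 1.48. After thinning to 1000 UMIs per cell, Myh11 was seen in 80.0% of Control and 89.7% of DPN cells and Mylk in 46.9% and 61.9%, both higher in DPN. In thinned satellite glia the shares were 0.402% and 0.374% for Myh11 and 0.469% and 0.856% for Mylk. In the shallowest range, with 27 and 50 cells, the intervals of both included 1.

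Of the actins, Acta2 was slightly lower in DPN and Actg2 fell. Acta2 (ENSRNOG00000058039) had 3262 CPM in Control and 2842 in DPN, a ratio of 0.871 (0.838 to 0.906). Actg2 (ENSRNOG00000029401), the smooth muscle gamma-actin, had 129 and 78.2 CPM from 213 and 139 UMIs, a ratio of 0.607 (0.486 to 0.755). Its UMIs were found in 37.8% of Control and 26.8% of DPN cells, and in 12% and 8.11% after each cell was thinned to 1000 UMIs, against 0.235% and 0.267% of satellite glia at full depth. The actins share nearly the same coding sequence, and the treatment of reads that match both was not given in the sources used here, so their split is uncertain. Below 3000 UMIs per cell, with only 7 and 13 UMIs of Actg2, its ratio was 1.012 (0.375 to 3.0), an interval that also holds the ratio over all cells. Among cells of like Tagln and Acta2 content, described below, it stood at 0.791 (0.496 to 1.26), 0.875 (0.636 to 1.20) and 0.729 (0.430 to 1.19), under 1 in each range with intervals that held 1.

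The proteins that bind actin filaments divided. Lmod1 (ENSRNOG00000051548), a leiomodin that starts new actin filaments, had 346 CPM in Control and 503 in DPN, a ratio of 1.45 (1.30 to 1.61). Tagln (transgelin, ENSRNOG00000017628) had 8917 and 6758, a ratio of 0.758 (0.740 to 0.776). Cnn1 (ENSRNOG00000027736, calponin, an inhibitor of the myosin motor) had 129 and 119, a ratio of 0.921 (0.758 to 1.12). Lmod1 was thus higher, Tagln lower, and the interval of Cnn1 held 1. Tpm2 (beta-tropomyosin, ENSRNOG00000016731) had 4787 and 4704 CPM, a ratio of 0.983 (0.953 to 1.01), and Des (desmin, ENSRNOG00000019810) 1179 and 1145, a ratio of 0.972 (0.913 to 1.03). For both, differences beyond about 10% in either direction lie outside the counting interval. Mustn1 (ENSRNOG00000017369), a small nuclear protein of muscle and skeletal tissues, had 2262 and 1904 CPM, a ratio of 0.842 (0.803 to 0.882).

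**Figure D2:**
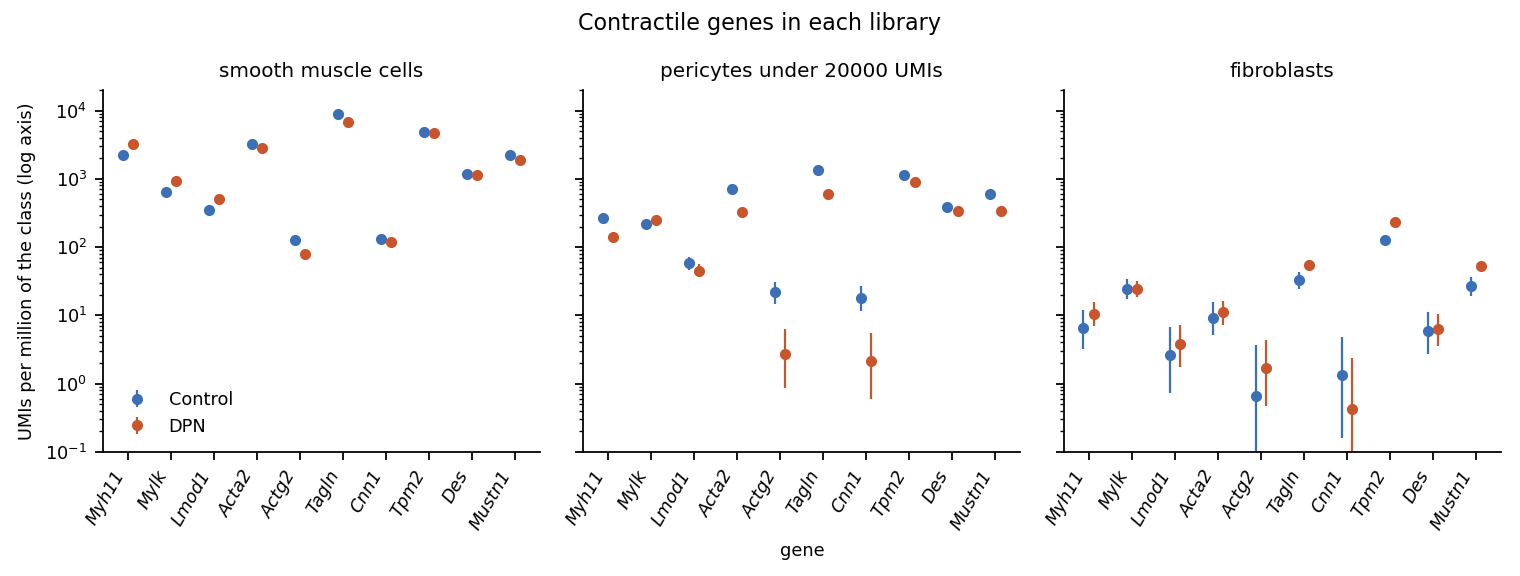
CPM of the class (log axis) for the 10 genes in smooth muscle cells, in pericytes with under 20000 UMIs and in fibroblasts. Each point is 1 library and bars are exact Poisson 95% intervals; in smooth muscle cells Myh11 runs from 2226 to 3291 and Tagln from 8917 to 6758.

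The sum of the 10 genes in DPN was 0.933 times that in Control (0.920 to 0.946), but Tagln and Acta2, which set the gate, gave over 40% of it in each library. Over the other 8 genes the sum was 1.08 times Control (1.06 to 1.10), so that the direction of the sum turned on the gate genes. Among the UMIs of these 8 genes, Myh11 made up 19.0% in Control (exact binomial 95% interval 18.5 to 19.6) and 26.0% in DPN (25.4 to 26.6). Mylk made up 5.44% (5.12 to 5.77) and 7.25% (6.92 to 7.60), and Lmod1 2.96% and 3.97%. These 3 shares were higher in DPN. Tpm2 made up 40.9% (40.2 to 41.6) and 37.2% (36.5 to 37.8), Mustn1 19.3% (18.8 to 19.9) and 15% (14.6 to 15.5), and Des 10.1% and 9.05%. In the median cell the 8 genes took 131 of 10000 UMIs in Control (quartiles 89.0 and 164) and 130 in DPN (95.5 and 167), so that the libraries overlapped widely from cell to cell. Shares within the 8 genes need no scaling by the total of the cells.

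DPN cells held less Tagln and Acta2 on average, so cells were also compared within ranges of that sum, chosen after the data had been seen. At 20 to 100 per 10000, with 103 Control and 208 DPN cells, the ratio of Myh11 was 2.04 (1.89 to 2.20), that of Lmod1 2.21 (1.80 to 2.72) and that of Mylk 1.72 (1.51 to 1.97). At 100 to 200, with 130 and 146 cells, they were 1.48 (1.40 to 1.57), 1.58 (1.36 to 1.84) and 1.48 (1.33 to 1.65). At 200 or more, with 42 and only 16 cells, they were 1.23 (1.08 to 1.41), 1.34 (1.0 to 1.77) and 1.42 (1.09 to 1.83). All 3 genes were above 1 in every range. The ranges rest on genes that differed between the libraries, so cells of a range need not be of the same kind in both. In the lowest range Des was also higher, at 1.26 (1.13 to 1.40), as was Acta2, at 1.13 (1.05 to 1.21). Cnn1 was at 1.57 (0.988 to 2.56), Tagln at 1.03 and Actg2 at 0.791 there. Tpm2 was 1.29 (1.22 to 1.36) in the lowest range and 0.997 and 1.05 in the others. Mustn1 ran the other way, from 1.04 (0.961 to 1.12) in the lowest range to 0.664 (0.558 to 0.787) in the highest.

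**Figure D3:**
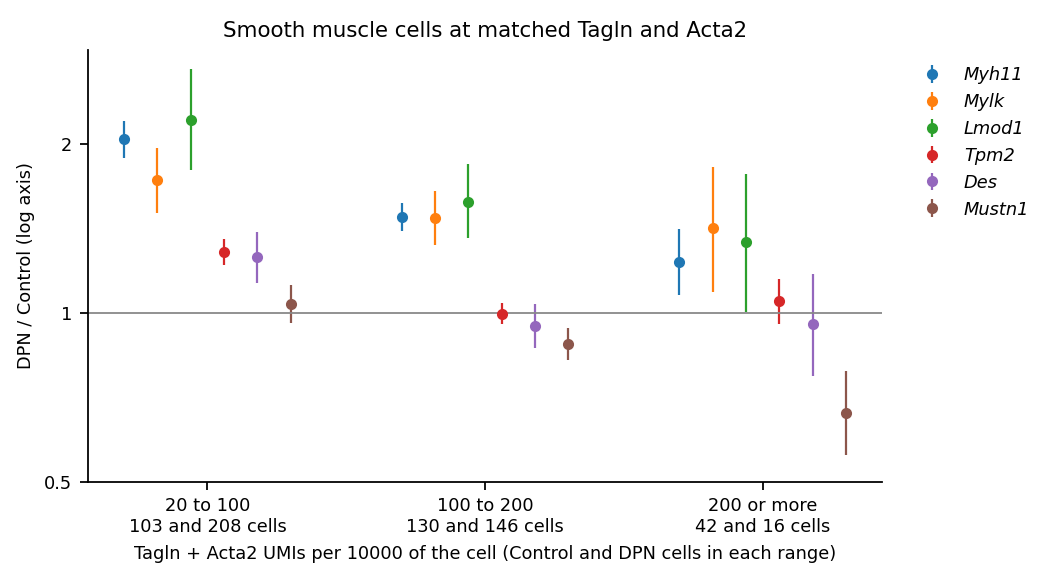
DPN to Control ratio (log axis) of 6 genes in smooth muscle cells within 3 ranges of Tagln and Acta2 per 10000 UMIs, with exact 95% counting intervals. Myh11 is at 2.04, 1.48 and 1.23 and Mustn1 at 1.04, 0.881 and 0.664 from the lowest range to the highest.

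Gene length moved with these ratios. In the RefSeq annotation of GRCr8, Myh11 spans 95.1 kb, Mylk 247 kb and Lmod1 42.3 kb with introns. The other 7 genes, from Mustn1 with 2.25 kb to Actg2 with 24.9 kb, are shorter, and all 7 had ratios under 1. Among all other genes of smooth muscle cells, of which 94.0% had a length, the median log2 ratio was -0.15 below 10 kb (1482 genes) and 0.0062 from 10 to 30 kb (1711 genes). It was 0.29 from 30 to 100 kb (1557 genes) and 0.48 at 100 kb or more (674 genes). Of the genes from 30 to 100 kb, 25.6% rose and 71.9% had ratios above 1, against 4.45% and 29.8% below 10 kb. The log2 ratios of Myh11 and Lmod1 were 0.56 and 0.54, above the median of their length range, and that of Mylk, 0.53, was close to the median of its own. At 100 kb or more, 37.8% of genes rose. The part of gene length in these results, and in those of the lists of partner genes below, was not tested.

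**Figure D4:**
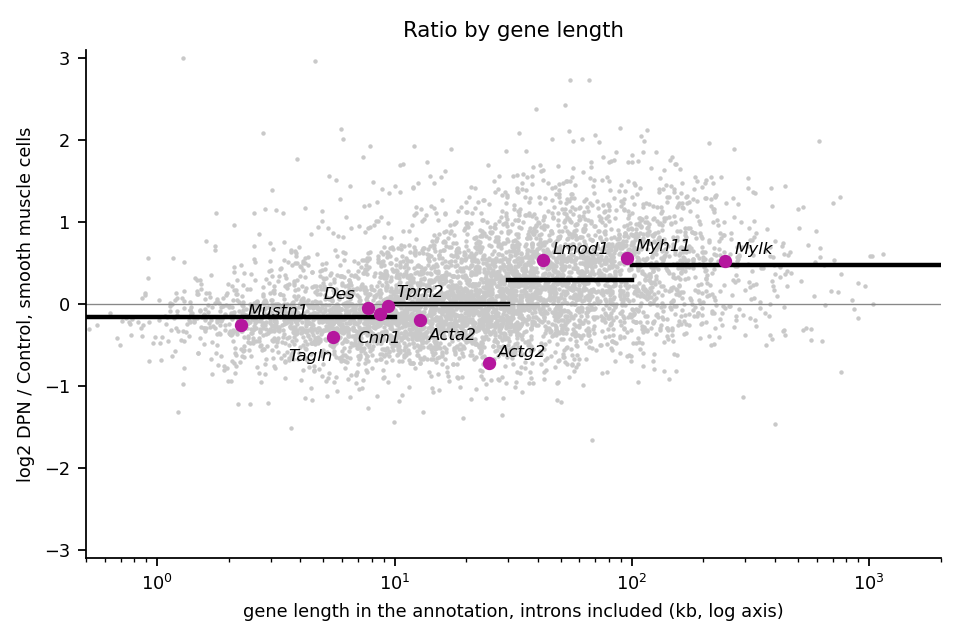
log2 DPN to Control ratio in smooth muscle cells against gene length with introns (kb, log axis). Grey points are all genes with at least 50 UMIs and a length, drawn at 3 where beyond it; black lines are medians of 4 length ranges, from -0.15 to 0.48, and coloured points are the 10 contractile genes.

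The share of UMIs from mitochondrial genes, a sign of cell quality, was close in the smooth muscle cells of both libraries, with medians of 8.91% and 9.12%. Below 10% mitochondrial UMIs (181 and 224 cells), the ratio of Myh11 was 1.45 (1.38 to 1.53) and that of Tagln 0.765 (0.742 to 0.789). From 10 to 20% (94 and 146 cells) they were 1.56 (1.45 to 1.67) and 0.754 (0.725 to 0.785). Mylk was 1.28 (1.16 to 1.41) and 1.84 (1.60 to 2.11). Actg2 fell among the former, at 0.510 (0.381 to 0.677), and stood at 0.809 (0.565 to 1.16) among the latter.

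RNA of other cells was present in the gate at low levels. Of the Schwann cell markers, Scn7a had 33 UMIs in Control and 97 in DPN, a ratio of 2.73. Pou3f1 was at 33.9 and 56.8 CPM and Cdh19 at 54.4 and 36.0. The 4 neuron markers summed to 70.7 and 182 CPM, and the 4 satellite glia markers to 363 and 210. Endothelial markers (18.7 and 43.3), macrophage markers (9.68 and 11.8, with no UMI of Mrc1 or Cd86) and neutrophil markers (0 and 3.37) were lower. Red blood cell markers summed to 7.26 and 14.6, and fibroblast markers to 245 and 218. Neuron markers were thus higher in DPN and satellite glia markers in Control, Schwann cell markers went both ways, and all stood far below the sum of the contractile genes. Their part in the results was not tested.

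Among the partners of the myosin motor, the light chains did not follow Myh11. Of 13 genes of myosin and its regulation, 11 had enough UMIs, 3 rose and none fell, where 16.2% of all genes rose and 4.67% fell. The median log2 ratio was 0.16, against 0.056 over all genes. Those that rose were Ppp1r12a and Ppp1r12b, targeting subunits of the phosphatase that relaxes smooth muscle, and Rock2, a kinase that inhibits this phosphatase. Ppp1r12a had 574 CPM in Control and 1002 in DPN, a ratio of 1.75 (1.61 to 1.89). Ppp1r12b was at 27.2 and 73.1, a ratio of 2.69 (1.90 to 3.86), and Rock2 at 130 and 255, a ratio of 1.96 (1.66 to 2.32). Myl9, the regulatory light chain, was at 2607 and 2024 (0.776, 0.742 to 0.811), and Myl6, the essential light chain, at 4845 and 4006 (0.827, 0.801 to 0.854).

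Of 24 genes of the thin filament and its anchorage, 21 had enough UMIs, 6 rose and 1 fell, with a median log2 ratio of 0.26 (all genes 16.2%, 4.67% and 0.056). Tpm4, a tropomyosin found outside muscle, had the highest ratio, 2.95 (2.24 to 3.94), from 41.1 to 121 CPM. Synpo2 stood at 2.47 (1.74 to 3.54), Actg1, the cytoplasmic gamma-actin, at 2.24 (1.56 to 3.26), and Tln1, talin, which ties integrins to actin, at 1.83 (1.61 to 2.07). Synm, an intermediate filament partner of desmin, stood at 1.57 (1.32 to 1.88). Pdlim7, an adaptor of actin filaments, fell to 0.640 (0.470 to 0.866). Palld had no symbol in the counts.

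Of 18 genes for calcium, channels and receptors, 14 had enough UMIs, 4 rose and none fell, with a median log2 ratio of 0.55 (all genes 16.2%, 4.67% and 0.056). Gucy1a1, a subunit of the nitric oxide receptor, went from 152 to 313 CPM, a ratio of 2.06 (1.77 to 2.39). Pde5a, which breaks down the cyclic GMP that this receptor makes, had only 14 and 51 UMIs and a ratio of 3.39 (1.85 to 6.63). Kcnma1, the large-conductance potassium channel, stood at 2.35 (1.39 to 4.10) and Itpr1, a calcium release channel, at 1.51 (1.24 to 1.85). Pln (phospholamban), a brake on the calcium pump, was at 989 and 804 CPM, a ratio of 0.813 (0.757 to 0.873). Prkg1 had no symbol in the counts.

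Of 18 transcriptional regulators, 9 had enough UMIs, 1 rose and none fell, which is no larger a share than the 16.2% of all genes that rose. Myocd (myocardin), the coactivator of serum response factor, had 41 and 73 UMIs and a ratio of 1.66 (1.11 to 2.49). Srf itself, with 79 and 82 UMIs, was at 0.965 (0.700 to 1.33), so a difference of up to about 30% in either direction could not be detected at this depth. The median log2 ratio of the 9 was 0.33. Mkl1, Mkl2 and Mrtfb had no symbol in the counts.

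Of 13 genes of matrix and the synthetic state, the non-contractile state of smooth muscle, 9 had enough UMIs, none rose and 2 fell, with a median log2 ratio of -0.37 (all genes 16.2%, 4.67% and 0.056). Timp1, an inhibitor of matrix proteases, went from 540 to 336 CPM, a ratio of 0.622 (0.560 to 0.690). Eln (elastin) had 47 and 29 UMIs and a ratio of 0.574 (0.348 to 0.931). Of 14 immediate early genes, which respond to stimulation and to dissociation, none passed the limits, 12 had ratios above 1 and the median log2 ratio was 0.22. Among all genes 54.2% had ratios above 1 and the median was 0.056. Fos was at 5364 and 6612 CPM, a ratio of 1.23 (1.20 to 1.27), and Jun at 4041 and 4714, a ratio of 1.17 (1.13 to 1.21).

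In pericytes, 4 of the 8 contractile genes with enough UMIs fell and none rose, where 5.1% of 8723 genes fell and 16.4% rose. Acta2 had 296 CPM in Control and 157 in DPN, a ratio of 0.531 (0.480 to 0.588). Tagln had 561 and 279, a ratio of 0.497 (0.461 to 0.536). Myh11 had 112 and 70.1, a ratio of 0.627 (0.534 to 0.734). All 3 were lower in DPN, as was Mustn1, with 255 and 163 and a ratio of 0.639 (0.576 to 0.709). Mylk, at 94.7 and 118, had a ratio of 1.25 (1.08 to 1.44). The ratios of Tpm2 (0.890), Lmod1 (0.932) and Des (0.976) lay nearer to 1. Actg2 and Cnn1 had too few UMIs, 29 and 5 of the former and 24 and 4 of the latter. The median log2 ratio of the 8 genes was -0.41, against 0.05 over all genes. The direction did not hold throughout. With a mitochondrial limit of 10% the median was 0.54 and 3 genes rose, Myh11 (1.53) among them. In cells thinned to 1000 UMIs no gene passed the limits and Myh11 was at 2.65, and in cells of 1000 to 3000 UMIs Acta2 was at 1.29. The ratio of Myh11 was above 1 in 5 of 19 alternatives, and those of Acta2, Tagln and Mustn1 in 1 each.

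The pericyte values did not hold for pericytes of one kind. The 10 deepest cells of the gate held 48.7% of its UMIs in Control and 41.9% in DPN, and its neuron markers summed to 2007 and 2473 CPM, so that very deep cells with neuronal genes entered the sums. Without cells of 20000 or more UMIs, 233 and 421 pericytes remained and neuron markers summed to 86.0 and 192 CPM. The same 4 genes fell, with Acta2 at 0.469, Tagln at 0.440, Myh11 at 0.530 and Mustn1 at 0.556, where 5.31% of 5705 genes fell. The median log2 ratio of the 8 genes was -0.61, against 0.11 over all genes.

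Among these cells, 22.7% of Control (17.5 to 28.7) and 13.5% of DPN pericytes (10.4 to 17.2) had Tagln and Acta2 at 20 or more per 10000. A limit on UMIs of the channel genes admits shallow cells less easily, and DPN pericytes were shallower (medians of 4694 and 3275 UMIs). In the 180 Control and 364 DPN pericytes below 20 per 10000, none of the 8 genes passed the limits, where 5.37% of genes fell and 18.5% rose, and the median log2 ratio was 0.09, against 0.11 over all genes. There Myh11 had 31 and 77 UMIs and a ratio of 1.51 (0.981 to 2.36), Mylk a ratio of 1.44 (1.18 to 1.75) and Mustn1 one of 0.786 (0.674 to 0.917). Tagln and Acta2 made the split, so their values within it, 0.909 and 0.702, are only a description.

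In the 53 and 57 pericytes at 20 or more per 10000, again no gene of the 8 passed the limits, where 8.3% of genes fell and 9.33% rose. Myh11 was at 908 and 752 CPM, a ratio of 0.828 (0.687 to 0.995), and Mustn1 at 1446 and 995, a ratio of 0.688 (0.589 to 0.803). The ratios of Acta2 and Tagln were 0.689 and 0.706. Pericytes at 20 or more were thus a lower share in DPN but not fewer, while those below 20 numbered 180 in Control and 364 in DPN. Differences in the make-up of the ganglia and in the recovery of cells on dissociation cannot be told apart. Over all pericytes under 20000 UMIs with a mitochondrial limit of 10% as well (169 and 220 cells), only Acta2 fell, at 0.629 (0.555 to 0.713), and Myh11 was at 1.07 (0.880 to 1.30). Median mitochondrial shares in pericytes under 20000 UMIs were 8.29% and 9.82%, and their part in the result was not tested.

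**Figure D5:**
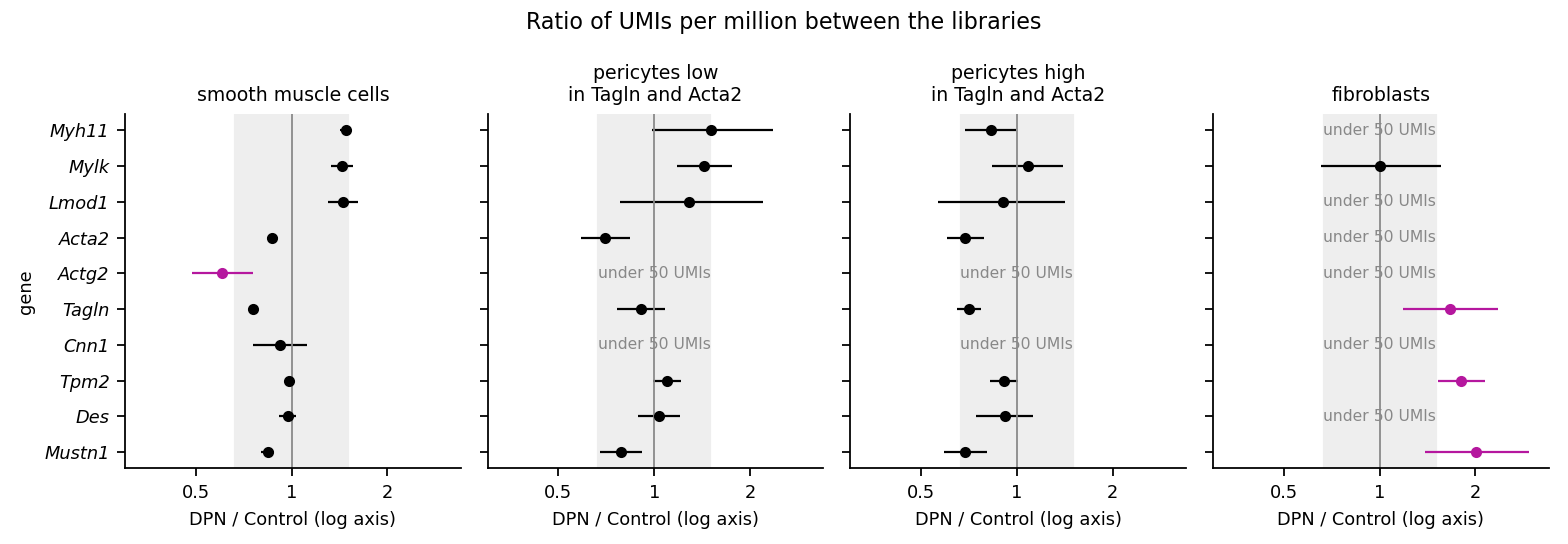
DPN to Control ratio (log axis) with exact 95% counting intervals in smooth muscle cells, in pericytes under 20000 UMIs with Tagln and Acta2 below or at 20 per 10000 and more, and in fibroblasts. The grey band spans 1.5-fold in either direction and coloured points passed the limits: Actg2 in smooth muscle cells and Tagln, Tpm2 and Mustn1 in fibroblasts.

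Red blood cell markers also differed in this gate, and their part in the results was not tested. They summed to 1228 CPM in Control and 247 in DPN pericytes under 20000 UMIs, led by Hba-a2 at 1155 and 227, while in smooth muscle cells they were near 0. Of the 10 pericyte markers in these cells, 1 fell, none rose and 4 had ratios above 1. Among all genes in these cells, 5.31% fell, 18.9% rose and 57.6% had ratios above 1. Ndufa4l2 fell from 1093 to 677 CPM (0.619, 0.574 to 0.668), Vtn was at 0.707 (0.655 to 0.764), Higd1b at 0.795 and Rgs5 at 0.913 (0.848 to 0.983). Cspg4 was at 1.47 (1.12 to 1.95), and Kcnj8 and Abcc9, which set the gate, at 1.02 and 1.28.

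The contractile partners that fell in these pericytes included both myosin light chains. Myl9 was at 866 and 508 CPM, a ratio of 0.587 (0.538 to 0.640), Myl6 at 0.655 (0.621 to 0.690) and Ppp1r14a, an inhibitor of myosin phosphatase, at 0.633 (0.545 to 0.735). Rock2 rose to 2.46 (2.02 to 3.0) and Calm2 to 1.67 (1.26 to 2.24), so that 2 of 10 genes of myosin regulation rose and 3 fell, where 18.9% of all genes rose and 5.31% fell. Of 20 genes of the thin filament, Actg1, Tpm4 and Synm rose and Nexn and Csrp1 fell. Of 13 genes for calcium and channels, Atp2b4, Stim1, Gucy1a1 and Pde5a rose, and Pln fell to 0.536 (0.477 to 0.602). Hey2 rose and Foxs1 fell among 8 transcriptional regulators, Fn1 and Spp1 rose and Timp1 fell among 10 matrix genes, and Fosb and Egr2 rose among 14 immediate early genes.

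In fibroblasts, the reference, the contractile genes stood near the level of cells outside muscle. Only 4 had enough UMIs, of which Tpm2, Mustn1 and Tagln rose, where 25.4% of 6331 genes rose and 4.0% fell. Tpm2 was at 128 and 230 CPM, a ratio of 1.80 (1.53 to 2.14), Mustn1 at 26.4 and 53.0, a ratio of 2.0 (1.39 to 2.94), and Tagln at 32.4 and 53.8, a ratio of 1.66 (1.19 to 2.36). Mylk was at 24.5 and 24.6, a ratio of 1.0 (0.654 to 1.56). Tagln was seen in 4.74% of Control and 7.41% of DPN fibroblasts (medians of 6711 and 6111 UMIs), and in 7.74% and 5.43% of Schwann cells (5913 and 4974 UMIs), where it stood at 50.8 and 36.4 CPM. In fibroblasts that passed no mural gate, the ratios were 1.75 for Tpm2, 2.44 for Mustn1 and 2.32 (1.13 to 5.25) for Tagln. That of Tagln moved to 8.01 (4.22 to 17.1) without doublets called by Scrublet and to 1.40 (1.03 to 1.91) in cells with at least 5 UMIs of Lum, where it no longer passed the limits. Tagln in fibroblasts was thus below Schwann cells in Control and above them in DPN, and the part of free RNA was not tested. Tpm2 in fibroblasts stood above its 53.1 and 60.3 CPM in Schwann cells.

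Outside the mural cells, low levels of the 10 genes moved in both directions. In endothelial cells, 3 of 8 genes with enough UMIs fell and none rose, where 4.97% of genes fell and 19.6% rose. They were Acta2 at 43.2 and 18.0 CPM (0.416, 0.355 to 0.488), Tagln at 73.6 and 45.3 (0.615, 0.552 to 0.685) and Des at 44.7 and 25.7 (0.575, 0.499 to 0.662). In satellite glia, Myh11 (1.94), Mylk (1.62) and Des (1.60) of 8 genes rose, all at levels under 12 CPM, where 26.0% of genes rose and 2.47% fell. In Schwann cells, Lmod1 (2.38) and Des (1.66) of 8 rose, where 24.9% rose and 1.99% fell. In macrophages 1 gene, Tpm2, had enough UMIs and rose to 2.69 times Control, where 20.3% rose and 4.72% fell. In neurons Tagln (1.90) and Tpm2 (1.63) rose of 4, where 19.6% rose and 3.1% fell. The cells of the neuron gate differed widely in depth, with medians of 94693 UMIs in Control and 4903 in DPN, and its part in these values was not tested. RNA of mural cells in these gates was not separated from their own.

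The genes whose levels over 8 cell classes and 2 libraries (16 points) were most like the sum of the 10 genes were Rbpms2, Myl9, Nop14, Map3k7cl and Galnt16. Their Pearson correlations on the log2 scale of CPM plus 1 were 0.987, 0.984, 0.976, 0.972 and 0.966 among 2238 genes, and points of 1 library share depth and free RNA. The genes ranked needed at least 200 UMIs in smooth muscle cells, and the sum includes Tagln and Acta2, which set that gate. High correlations were therefore favoured in advance, and the ranking is only a description. In smooth muscle cells Rbpms2, an RNA-binding protein, was at 96.8 and 102 CPM (1.05, 0.846 to 1.31). Nop14 was at 252 and 331 (1.31, 1.15 to 1.49), Map3k7cl at 979 and 1045 (1.07, 0.998 to 1.14) and Galnt16 at 80.4 and 92.8 (1.15, 0.912 to 1.46).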

How the data were processed

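The authors counted UMIs per gene and barcode with Cell Ranger 3.1.0 and the STAR aligner, with a genome build not given in the sources used here. The deposited values are raw counts, summing to 121101966 in Control and 115409375 in DPN. The study's methods mention down-sampling of reads, and whether it was applied to these counts is unclear. The members, gates and lists were chosen with earlier results of these data known.

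Counts of the cells of a gate were summed per symbol and library, and CPM divide the sum by all UMIs of the gate. Per 10000 UMIs, endothelial cells had Cldn5, Flt1 and Cdh5 at 10 or more in sum, satellite glia Fabp7 and Tyrp1 at 20 or more, and neurons Nefl, Nefm and Avil at 20 or more. Schwann cells had Scn7a and Cdh19 at 5 or more with Fabp7 and Tyrp1 under 20, and macrophages Csf1r and C1qb at 5 or more. Gates could overlap: 11 Control and 14 DPN pericytes also passed the neuron gate. Ratios carry exact conditional binomial 95% intervals, levels exact Poisson and shares exact Clopper-Pearson intervals, all covering counting error only. The ratio and its interval were run on simulated Poisson counts with known ratios. Those counts hold counting error only, so the run says nothing on the spread between cells or between pools of rats.

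The 10 members are named in every class, with the genes of each partner list that passed the limits, or else its 2 genes with most UMIs, the leading markers of other cell types and the 5 genes of most similar pattern among those with at least 200 UMIs in smooth muscle cells. Some genes of the lists are counted but not reported here by name. Pln, Srf, Myl9 and Myl6 in smooth muscle cells, and the pericyte markers, were named after their values were seen. Gene lengths were matched by symbol to the RefSeq table of GRCr8. Doublets were kept. Scrublet (scanpy 1.11.5), used in an alternative, marked 1.58% of Control and 1.06% of DPN cells. Alternatives changed the scaling, the limits on UMIs and mitochondrial share, the gates, the depth of cells and the weight of each cell. Python 3.11.15, NumPy 2.4.6, SciPy 1.17.1, pandas 2.3.3 and matplotlib 3.10.9 were used.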

Additional observations from a re-analysis of the deposited data

Results flagged for a closer look

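Several contractile genes moved in opposite directions in different cell classes, with counting intervals that left out 1 on both sides. None of these differences between classes was tested, since each class has 1 library per condition. Myh11 had a DPN to Control ratio of 1.48 in smooth muscle cells and of 0.627 in pericytes. Tagln was at 0.758 in smooth muscle cells and 0.497 in pericytes but at 1.66 in fibroblasts. Mustn1 was at 0.842 in smooth muscle cells and 0.639 in pericytes and at 2.0 in fibroblasts, and Tpm2 at 0.890 in pericytes and 1.80 in fibroblasts. Fibroblasts held few UMIs of Tagln (49 in Control and 127 in DPN) and of Mustn1 (40 and 125), and 25.4% of all their genes rose. In pericytes with under 20 Tagln and Acta2 UMIs per 10000 the ratio of Myh11 was 1.51 with an interval from 0.981 to 2.36, so that its opposite direction did not hold there.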

How the results depend on the processing

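No paired analysis was possible because both libraries are single pools of different rats. In smooth muscle cells, the ratios of Myh11 (1.11 to 1.53), Lmod1 (1.33 to 1.54) and Mylk (1.02 to 1.48) stayed above 1 and those of Acta2, Tagln and Mustn1 below 1 under all 21 alternatives. The count of genes past the limits, 1 in the reported values, was 2 with median-ratio scaling and with AY172581 genes counted as mitochondrial, where Myh11 rose, 3 with Tagln and Acta2 at 50 or more (2 higher), and 0 after thinning to 1000 UMIs and in cells of 1000 to 3000 UMIs. In the latter, 27 and 50 cells, the median log2 ratio was 0.087 and Actg2 stood at 1.012. That median was -0.20 with a gate on Myh11, Cnn1 and Lmod1, -0.21 without doublets and -0.20 with equal weight per cell. In pericytes, a mitochondrial limit of 10% turned the median to 0.54, with 3 genes higher, Myh11 at 1.53 and Mustn1 at 1.04. With that limit and under 20000 UMIs it was 0.021, 1 gene fell and Myh11 was at 1.07. Thinning (54 and 136 cells) gave 0.19, 0 genes, Myh11 at 2.65 and Tagln at 1.14. Cells of 1000 to 3000 UMIs (32 and 180) gave 0.32, 1 gene higher, Acta2 at 1.29 and Myh11 at 1.10. Cells low in Tagln and Acta2 gave 0.090, 0 genes and Myh11 at 1.51. The causes of these changes were not tested. The limits of 20000 UMIs and on Tagln and Acta2 in pericytes were chosen after seeing the data.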
